A study of Mus musculus with 24 samples.

Results

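The CXC chemokines are small secreted proteins that guide leukocytes. Transcripts of 10 of them, Cxcl1, Cxcl2, Cxcl3, Cxcl5, Cxcl9, Cxcl10, Cxcl11, Cxcl13, Cxcl14 and Cxcl16, were followed here, chosen by gene symbol from the 23420 gene rows of each count table. All 10 had a row in every one of the 24 libraries. The cells were mouse bone marrow-derived macrophages (BMDMs) and T helper type 2 (Th2) cells of the C57BL/6 strain, and the question of the study was what the loss of the DNA demethylation enzymes TDG or TET1, TET2 and TET3 does to them. The BMDMs came in a Tdg cohort and a Tet cohort of 4 groups each, with 2 libraries a group. The Tdg cohort held WT and TDG iKO (Tdg fl/fl CreERT2) cells, and the Tet cohort held WT and TET iTKO (Tet1, Tet2 and Tet3 fl/fl CreERT2) cells. In each cohort the cells were taken without stimulation (0 h) or after 6 h with Kdo2-lipid A (KLA) at 10 ng/ml, the lipid A core of endotoxin and an agonist of Toll-like receptor 4. Th2 cells were WT or TDG iKO, with 4 libraries each, and were not treated further. CreERT2 is a Cre recombinase that tamoxifen activates. Cre-carrying mice and controls alike were injected with tamoxifen (2 mg) and were 8 to 16 weeks old. BMDMs of every group had been grown in L929-conditioned medium with added M-CSF. Th2 cells had been primed with anti-CD3, anti-CD28, IL-4 and anti-IFN-γ and expanded in IL-2 for 3 days.

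CXC chemokines carry 1 residue between their first pair of cysteines and act on G protein-coupled receptors. Cxcl1, Cxcl2, Cxcl3 and Cxcl5 bind CXCR2 and draw neutrophils. Cxcl9, Cxcl10 and Cxcl11 are known as interferon-inducible ligands of CXCR3, the receptor of activated T cells and NK cells, although C57BL/6 mice make no Cxcl11 protein. Cxcl13 draws B cells through CXCR5, Cxcl14 is made at steady state by many epithelia, and Cxcl16 is a membrane-anchored ligand of CXCR6 that also takes up oxidized lipid. In macrophages, Toll-like receptor 4 switches on the first group through NF-kB, and Cxcl10 through NF-kB together with the interferon pathway.

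The libraries held 4982950 to 26657729 counts assigned to genes (median 14853861), so that the 3 counts that an observed count of 0 still allows stood for 0.113 to 0.602 CPM (read counts scaled to equal library totals), as a limit of counting error only. Macrophage markers (Adgre1, Csf1r, Cd68, Itgam and Lyz2) summed to 20200 to 27500 CPM in every BMDM library and to 9.88 to 60.3 CPM in Th2 cells. T cell and Th2 markers summed to 1110 to 1830 CPM in Th2 cells and to 6.97 to 26.5 CPM in BMDMs. The row of Tdg held at most 2.37 normalised counts in any BMDM library, WT included, and those of Tet2 and Tet3 overlapped between TET iTKO and WT, so these gene-level counts do not check the deletions. In Th2 cells, replicates 3 and 4 of each genotype differed by little more than sampling noise (mean chi-square per gene 1.34 and 1.51, against 10.9 to 218 for the other pairs). They were summed and counted as 1 sample, which left 3 against 3. The labels do not say that BMDM replicates came from separate mice. The names of the deposited Tet cohort data give each replicate an animal number of its own, and nothing does so for the Tdg cohort, where p-values measure the spread between libraries, which may be technical. In bulk RNA, a larger share of cells that make a chemokine and more RNA per cell cannot be told apart.

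Of the 10 genes, 8 lie on mouse chromosome 5. In the build of the files (mm9), Cxcl5, Cxcl3, Cxcl1 and Cxcl2 stood in this order on the plus strand within 146611 bases, from the start of Cxcl5 (chr5:91188325-91190651) to the end of Cxcl2 (chr5:91332897-91334935). Cxcl3 was at chr5:91215129-91217112 and Cxcl1 at chr5:91320267-91322141. The CXCR3 ligands formed a second group of 44155 bases on the minus strand, with Cxcl9 at chr5:92750357-92757105, Cxcl10 at chr5:92775664-92777915 and Cxcl11 at chr5:92788570-92794511. Cxcl13 was farther along the same chromosome (chr5:96385945-96390086, plus strand). Cxcl14 (chr13:56390008-56397912) and Cxcl16 (chr11:70267485-70273486) were on the minus strands of other chromosomes. The exons of Cxcl16 overlapped those of Zmynd15, on the opposite strand, over 552 bases, and whether the counting used strand is not given in the sources used here. Zmynd15 held 154 to 1571 counts in BMDM libraries against 2842 to 15203 for Cxcl16. Exons of Cxcl10 overlapped those of Art3 over 133 bases, and Art3 held 0 to 2 counts. Cxcl11 shared 1582 exonic bases with Gm2673, on the opposite strand, which had no row. Cxcl11 is listed as a transcribed pseudogene in RefSeq, so its values below are those of a transcript.

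The sequences upstream of Cxcl1, Cxcl2, Cxcl3 and Cxcl10 are shown because these 4 transcripts carry the KLA response described next. RefSeq (build GRCm38.p6) gave a window of 300 bases, 250 before and 50 after the annotated start, for 7 of the 10 genes and not for Cxcl5, Cxcl11 or Cxcl16. Each line holds the bases up to the start, 130 for the first 3 genes and a longer stretch for Cxcl10. Capitals mark matches to a kB motif (GGGANNNNCC, the letters NF-kB binds), an AP-1 motif (TGANTCA), an interferon response motif (GAAANNGAAA) or ATAAAA, and matches on either strand that overlap were merged.
Cxcl3, chr5:90785971-90786100, plus strand: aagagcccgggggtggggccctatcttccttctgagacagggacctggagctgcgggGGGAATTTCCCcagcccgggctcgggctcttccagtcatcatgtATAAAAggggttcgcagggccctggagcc
Cxcl1, chr5:90891115-90891244, plus strand: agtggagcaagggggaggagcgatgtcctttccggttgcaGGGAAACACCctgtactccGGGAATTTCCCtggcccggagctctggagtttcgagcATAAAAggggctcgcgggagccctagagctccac
Cxcl2, chr5:90903769-90903898, plus strand: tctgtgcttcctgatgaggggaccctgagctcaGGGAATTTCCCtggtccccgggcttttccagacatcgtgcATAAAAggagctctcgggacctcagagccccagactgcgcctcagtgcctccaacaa
Cxcl10, chr5:92348890-92349114, minus strand: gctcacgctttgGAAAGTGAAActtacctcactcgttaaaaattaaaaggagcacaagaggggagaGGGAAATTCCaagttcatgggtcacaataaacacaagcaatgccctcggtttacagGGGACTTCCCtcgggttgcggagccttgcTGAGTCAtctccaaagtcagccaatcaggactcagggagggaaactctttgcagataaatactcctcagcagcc

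Cxcl1, Cxcl2 and Cxcl3 shared the same 10 letters, GGGAATTTCC, at positions -71 to -62, -97 to -88 and -73 to -64 from the start. On either strand these letters stood in 29 of the 32851 promoter windows of the genome (0.0883%). All 3 genes also held ATAAAA on the sense strand between that match and the start, which 11.1% of windows held. The looser kB motif was in 6 of the 7 CXC windows (every one but Cxcl14), and in 20.7% of all windows. Cxcl10 held 2 places with it, at -159 to -150 and -103 to -94. The interferon response motif, in 3.44% of windows, was found for Cxcl10 at -213 to -204 and for Cxcl14 at -172 to -163. The AP-1 motif, in 7.81% of windows, was found for Cxcl10 at -74 to -68 and for Cxcl9 after its start. All motifs but ATAAAA were searched on both strands, the exact kB letters are a case of the looser motif, and the motifs were picked after these sequences had been seen. A match of letters describes the sequence and says nothing of binding in these cells.

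**Figure D1:**
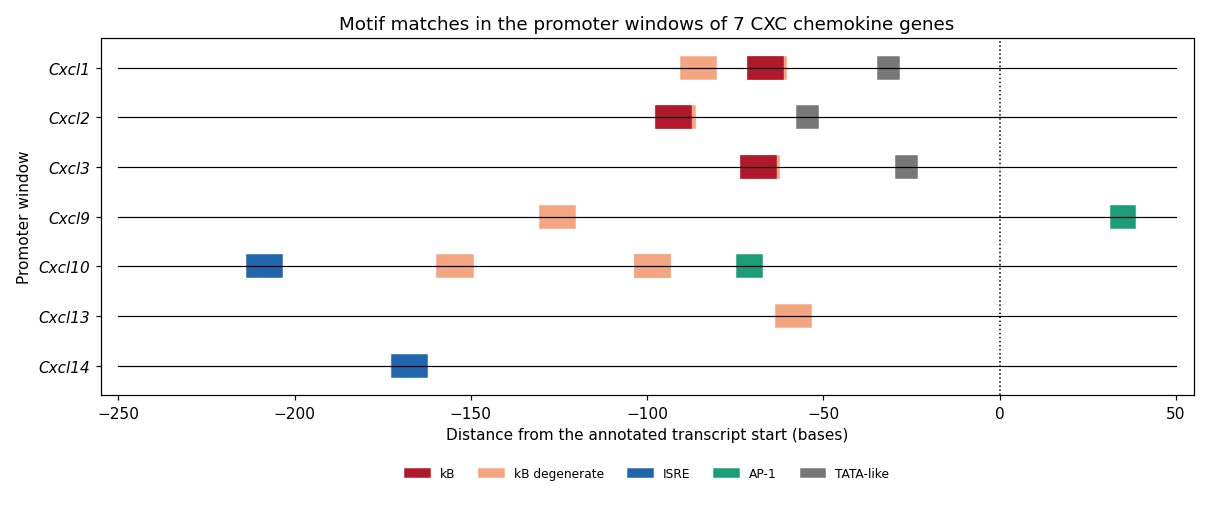
Motif matches in the 300-base promoter windows of 7 CXC chemokine genes, against the distance from the annotated transcript start in bases (dotted line at 0). The exact kB letters (dark red) stand upstream of ATAAAA (grey) in Cxcl1, Cxcl2 and Cxcl3, and Cxcl10 has an interferon response motif, 2 looser kB matches and an AP-1 motif.

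Levels of different genes were compared as CPM per kilobase of exon. In unstimulated BMDMs Cxcl16 was the most abundant of the 10 in all 4 groups, with group means of 150 to 195 CPM per kilobase, which was 71.6 to 84.6% of the sum over the 10. Cxcl10 came second, at 14.4 to 45 CPM per kilobase, and Cxcl2 came next, at 5.6 to 14.2. At 6 h of KLA, Cxcl10 took the first place in all 4 groups, at 269 to 738 CPM per kilobase and 30.8 to 59.4% of the sum. Cxcl16 followed with 228 to 256, then Cxcl2 with 86.9 to 161, Cxcl3 with 29.8 to 112 and Cxcl1 with 23 to 67.1. In TET iTKO cells at 6 h, Cxcl10 (212 and 326) and Cxcl16 (252 and 257) overlapped across the libraries, so this order did not hold beyond their spread. The same was true of WT cells of the Tet cohort at 6 h, where Cxcl10 was at 188 and 621 and Cxcl16 at 220 and 237. Cxcl3 and Cxcl1 also overlapped there, at 24.8 and 34.7 against 26.1 and 26.6. Cxcl5, Cxcl9 and Cxcl13 stayed below 2 CPM per kilobase in every BMDM group.

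**Figure D2:**
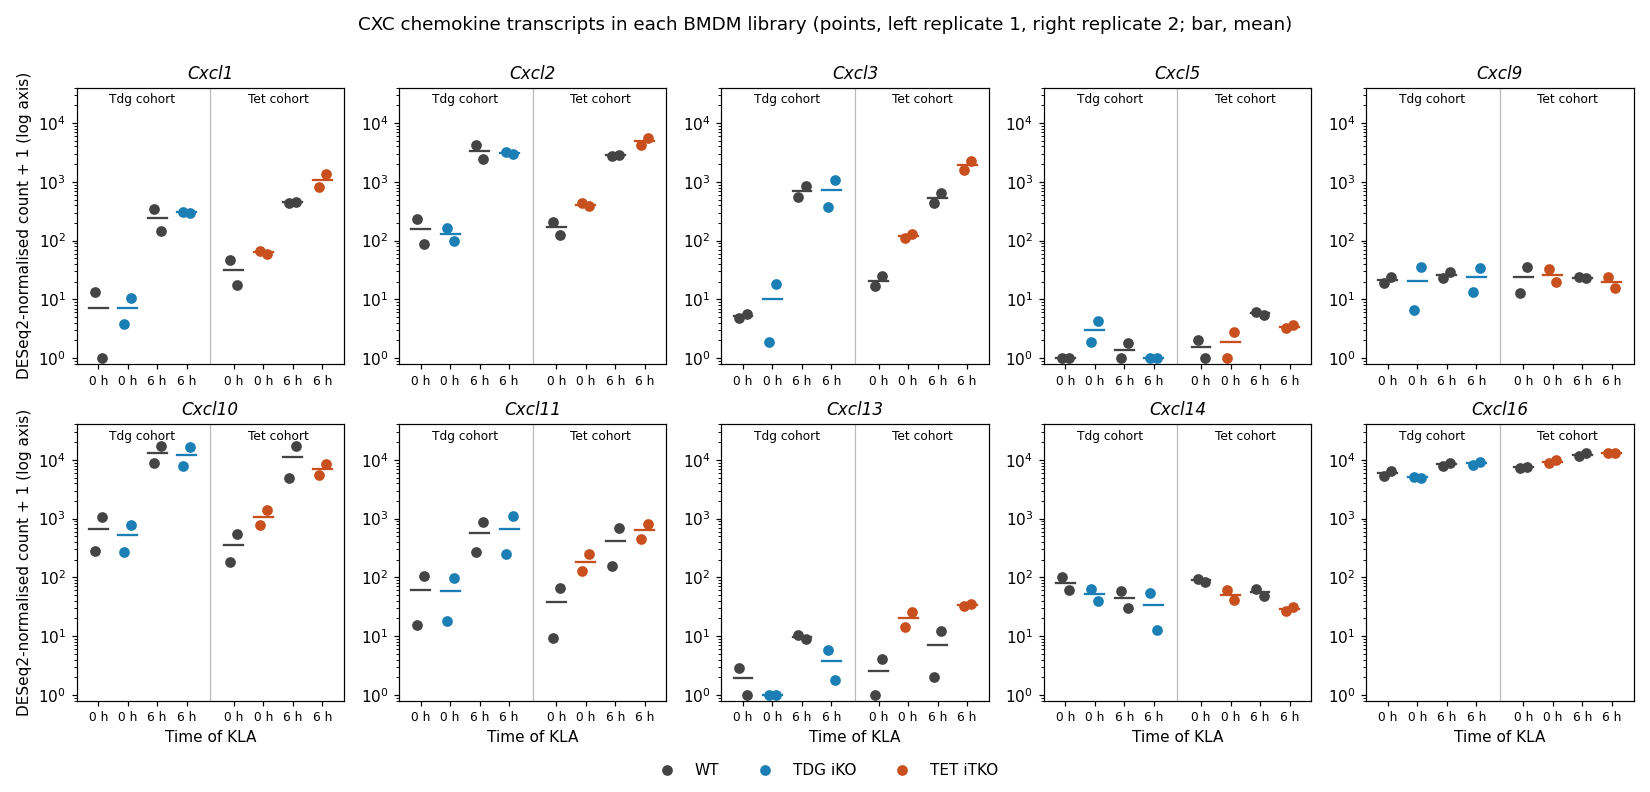
Normalised counts plus 1 (log axis) of the 10 CXC chemokine transcripts in each of the 16 BMDM libraries, by cohort, genotype and time of KLA. Points are libraries and bars are means of 2; Cxcl1, Cxcl2, Cxcl3, Cxcl10 and Cxcl11 have higher means at 6 h than at 0 h in every group, Cxcl14 does not, and Cxcl5 stays near 0.

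Stimulation with KLA raised Cxcl1, Cxcl2, Cxcl3 and Cxcl10 in every genotype and cohort. By DESeq2's Wald test with Benjamini-Hochberg adjustment over all genes at a threshold of 0.05, 4 of the 8 CXC genes tested in WT cells of the Tdg cohort rose at 6 h, where 5.29% of all genes rose and 3.32% fell. In TDG iKO cells 5 of 8 rose (background 4.27% up, 2.81% down). In WT cells of the Tet cohort 6 of 9 rose (13.1% up, 11.1% down), and in TET iTKO cells 5 of 9 (12.8% up, 11.6% down). None of the 10 fell past the threshold in any of the 4. The genes not tested, Cxcl5 throughout and Cxcl13 in the Tdg cohort, were left out by DESeq2's filter on low counts. Normalised counts, which are read counts divided by a library's size factor, are given below on a scale of each cohort's own, and log2 changes are unshrunken with their SE. The median log2 change of the CXC genes tested was 3.79 in WT and 4.06 in TDG iKO cells of the Tdg cohort, and 3.48 in WT and 1.79 in TET iTKO cells of the Tet cohort, with medians over all genes between -0.0276 and 0.000508. The comparisons of a cohort share libraries and are not independent of each other. These tests do not pair the 0 h and 6 h library of an animal in the Tet cohort.

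Cxcl2, also known as MIP-2, is made early by macrophages in infection to recruit neutrophils. Its normalised counts in WT cells of the Tdg cohort were 234.4 and 85.14 at 0 h and 4206 and 2429 at 6 h, and in TDG iKO cells 160.5 and 98.92 against 3219 and 2986. In the Tet cohort they were 209.3 and 125.3 against 2772 and 2880 in WT, and 439 and 381.2 against 4238 and 5561 in TET iTKO cells. The libraries at 6 h lay above those at 0 h without overlap in each group. The log2 changes were 4.35 ± 0.488 (SE) in WT and 4.58 ± 0.483 in TDG iKO cells, and 4.10 ± 0.186 in WT and 3.58 ± 0.178 in TET iTKO cells of the Tet cohort, and all 4 rises passed the test. Without replicate 1 at 0 h, the WT value of the Tdg cohort was 5.28.

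Cxcl3, a neighbour and close relative of Cxcl2, had the largest log2 change of the genes that rose in both groups of the Tdg cohort. In the Tdg cohort it went from 3.796 and 4.602 normalised counts to 547.1 and 852.5 in WT cells, and from 0.9173 and 17.2 to 375.4 and 1078 in TDG iKO cells. The libraries at 0 h held only 4 and 2 reads in WT (log2 change 7.42 ± 0.93) and 1 and 32 reads in TDG iKO cells (6.25 ± 0.757), so the sizes of these rises rest on few reads. The TDG iKO value was 5.40 without replicate 1 and 9.63 without replicate 2 at 0 h, and 6.87 and 5.28 without replicate 1 and replicate 2 at 6 h. In the Tet cohort Cxcl3 went from 15.86 and 23.68 to 434.1 and 637.9 in WT cells (4.73 ± 0.3) and from 107.9 and 128.5 to 1590 and 2239 in TET iTKO cells (4.01 ± 0.227). All 4 rises passed the test.

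Cxcl1, or KC, another neutrophil-attracting ligand of CXCR2, rose in all 4 groups as well. Its normalised counts went from 12.34 and 0 to 345.4 and 142.5 in WT and from 2.752 and 9.676 to 306.1 and 297.5 in TDG iKO cells. In the Tet cohort they went from 45.45 and 16.81 to 440.3 and 453.6 in WT and from 66.7 and 58.43 to 828.2 and 1340 in TET iTKO cells. The groups did not overlap, and the log2 changes were 5.01 ± 0.779, 5.53 ± 0.717, 3.87 ± 0.513 and 4.12 ± 0.498 in the same order. The WT value of the Tdg cohort rests on 13 and 0 reads at 0 h. It was 9.16 without replicate 1 at 0 h, 4.30 without replicate 2 at 0 h and 4.25 without replicate 1 at 6 h. The TDG iKO value was 6.77 without replicate 2 at 0 h, and the WT value of the Tet cohort 4.73 without replicate 1 at 0 h. Cxcl5, the remaining CXCR2 ligand, had 0 to 5.156 normalised counts over all 16 libraries and could not be assessed at this depth.

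Cxcl10, or IP-10, rose in all 4 groups. Its normalised counts in the Tdg cohort were 280 and 1056 at 0 h against 8661 and 17380 at 6 h in WT, and 266 and 779.5 against 7806 and 16750 in TDG iKO cells. In the Tet cohort they were 179.7 and 537.8 against 4957 and 17190 in WT, and 779.8 and 1376 against 5433 and 8437 in TET iTKO cells. Replicate 2 held more Cxcl10 than replicate 1 in all 8 BMDM groups. The log2 changes were 4.29 ± 0.662 in WT and 4.55 ± 0.661 in TDG iKO cells, and 4.95 ± 0.839 in WT and 2.69 ± 0.838 in TET iTKO cells (adjusted p = 0.0077 in the last by DESeq2). Without TET iTKO replicate 1 at 0 h or replicate 2 at 6 h, the last of these no longer passed. The other 3 passed with any 1 library left out and moved with the replicate that remained. In WT cells of the Tdg cohort the value was 3.62 and 5.54 without replicate 1 and replicate 2 at 0 h and 3.70 without replicate 2 at 6 h. In TDG iKO cells it was 5.52 and 3.90 without replicate 2 at 0 h and at 6 h. In WT cells of the Tet cohort it was 4.36 and 5.94 without replicate 1 and replicate 2 at 0 h and 5.58 and 3.79 without them at 6 h. None of these fits used the animal pairing of the Tet cohort. With the animal as a replicate block, the rise was 4.91 ± 0.106 in WT and 2.7 ± 0.0952 in TET iTKO cells. The latter had adjusted p = 1.86e-174 by DESeq2, in a fit with few residual degrees of freedom.

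Cxcl11 followed Cxcl10 at a level far below it, and the groups at 0 h and 6 h did not overlap. WT cells of the Tdg cohort held 14.24 and 103.5 normalised counts at 0 h and 269.4 and 873.1 at 6 h, and TDG iKO cells 17.43 and 95.69 against 246.6 and 1098. WT cells of the Tet cohort held 8.456 and 65.7 against 154.7 and 678.7, and TET iTKO cells 124.9 and 244.5 against 455.9 and 818.9. Only the WT rise of the Tet cohort passed the unpaired DESeq2 test (log2 change 3.48 ± 1.16, adjusted p = 0.0145), with adjusted p = 0.134, 0.106 and 0.3 in WT of the Tdg cohort, TDG iKO and TET iTKO cells. That call was lost without WT replicate 1 at 0 h (2.66) or WT replicate 2 at 6 h (2.05), and with the 4 libraries compared fitted alone, and the value was 5.62 without replicate 2 at 0 h and 4.19 without replicate 1 at 6 h. With the animal as a replicate block, the WT rise of the Tet cohort was 3.59 ± 0.292 (adjusted p = 4.35e-33 by DESeq2). With a replicate block for the shared numbers, the rise passed in the Tdg cohort too, although nothing ties those numbers to shared animals. There it was 3.59 ± 0.374 in WT (adjusted p = 1.53e-19 by DESeq2) and 3.63 ± 0.352 in TDG iKO cells (adjusted p = 1.39e-22). Cxcl9, or MIG, the remaining CXCR3 ligand, stayed between 5.504 and 34.41 normalised counts in all 16 libraries, with log2 changes of -0.40 to 0.31 and no call.

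Cxcl16 rose the least of the genes that passed. It went from 5213 and 6540 normalised counts to 7914 and 8870 in WT and from 5119 and 4918 to 8258 and 9339 in TDG iKO cells, and the groups did not overlap. The log2 change was 0.51 ± 0.254 in the former (adjusted p = 0.232 by DESeq2) and 0.81 ± 0.254 in the latter (adjusted p = 0.0243), and the latter was no longer past the threshold when any 1 of its 4 libraries was left out or under edgeR. In the Tet cohort Cxcl16 rose from 7295 and 7557 to 11530 and 13020 in WT (0.73 ± 0.105) and from 8800 and 9771 to 12830 and 13230 in TET iTKO cells (0.49 ± 0.105), and both passed. Cxcl14 was lower at 6 h in the mean of each group, with log2 changes of -0.91, -0.68, -0.68 and -0.82, none of which passed. Its highest library was 100.6 normalised counts, in unstimulated WT cells, and its lowest 11.59, in stimulated TDG iKO cells. Cxcl13 had 0 to 3.056 normalised counts in WT and TDG iKO cells at 0 h and 0.7728 to 11.04 at 6 h, and no change passed.

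**Figure D3:**
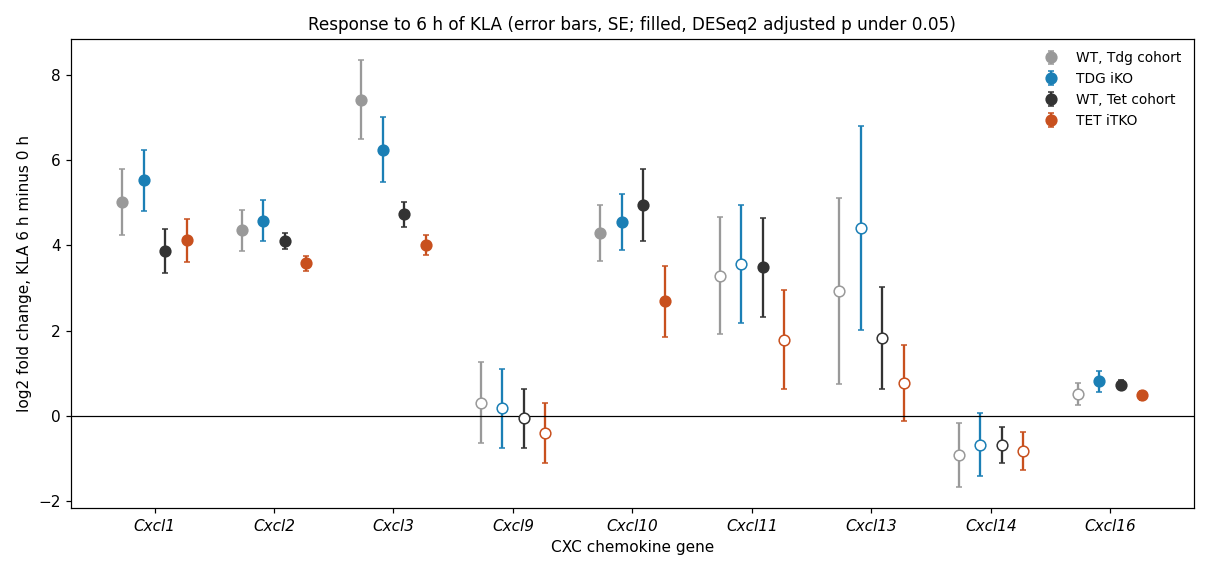
Log2 change of CXC chemokine transcripts from 0 h to 6 h of KLA (Cxcl5 left out) in the 4 cohort and genotype groups, with SE as error bars and filled symbols where DESeq2's adjusted p was under 0.05. Cxcl1, Cxcl2, Cxcl3 and Cxcl10 are filled in all 4 groups, and the TET iTKO points for Cxcl10 (2.69) and Cxcl11 (1.79) lie under the other 3.

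Unstimulated TET iTKO BMDMs held more transcript of 4 CXC chemokines than WT BMDMs. Cxcl2, Cxcl3, Cxcl13 and Cxcl16 were higher, 4 of the 9 CXC genes tested, where 4.38% of all 12200 genes tested were higher and 3.12% lower. None of the 9 was lower past the threshold. The median log2 difference of the 9 was 1.31, against 0.00833 over all genes tested. edgeR called 2 of them, Cxcl2 and Cxcl3, where it called 3.3% of the 11441 genes it tested higher.

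Cxcl3 differed most by its test, with 107.9 and 128.5 normalised counts in TET iTKO against 15.86 and 23.68 in WT cells. The fold was 5.88, the log2 difference 2.56 ± 0.311 (SE), and adjusted p = 9.34e-14 by DESeq2. The lowest TET iTKO library stood well clear of the highest WT library. Cxcl2 was at 439 and 381.2 against 209.3 and 125.3, a 2.48-fold difference (1.31 ± 0.192, adjusted p = 1.87e-09). Cxcl1, the third of this neighbourhood with the same 10 letters upstream, was at 66.7 and 58.43 against 45.45 and 16.81. The groups did not overlap, and the difference (1.03 ± 0.527, adjusted p = 0.303) did not pass the test.

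Cxcl13 was at 13.34 and 25.17 normalised counts in TET iTKO cells against 0 and 3.056 in WT cells, from 11 and 28 reads against 0 and 4. The log2 difference of 3.53 ± 1.15 passed narrowly (adjusted p = 0.0328) and was lost under edgeR and when any 1 of the 4 libraries was left out, with a value of 2.66 without WT replicate 1 and 6.64 without WT replicate 2. Cxcl16 was at 8800 and 9771 against 7295 and 7557, a log2 difference of 0.32 ± 0.105 (adjusted p = 0.0328), and its call was lost under edgeR and without WT replicate 1, WT replicate 2 or TET iTKO replicate 2. Zmynd15, which overlaps Cxcl16, held 629 to 838 reads in TET iTKO and 525 to 796 in WT libraries. Cxcl10 (779.8 and 1376 against 179.7 and 537.8) and Cxcl11 (124.9 and 244.5 against 8.456 and 65.7) did not overlap between genotypes, but the WT libraries lay too far apart for the differences of 1.59 ± 0.839 and 2.31 ± 1.17 to pass (adjusted p = 0.329 and 0.288). Cxcl14 was the only one of the 9 with a lower mean in TET iTKO cells, at 60.64 and 39.55 against 91.96 and 84.03 (-0.82 ± 0.42, adjusted p = 0.3). Cxcl9 overlapped between the genotypes.

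After 6 h of KLA, 2 of the 9 CXC genes tested were higher in TET iTKO than in WT cells and none was lower, where 3.24% of all genes were higher and 3.34% lower. These were again Cxcl3 and Cxcl2. The median log2 difference of the 9 was 0.613, against -0.00206 over all genes. Cxcl3 was at 1590 and 2239 normalised counts in TET iTKO against 434.1 and 637.9 in WT cells, a 3.58-fold difference (1.84 ± 0.21, adjusted p = 2.04e-15). Cxcl2 was at 4238 and 5561 against 2772 and 2880 (0.79 ± 0.171, adjusted p = 2.09e-04), and its call was lost without WT replicate 1, WT replicate 2 or TET iTKO replicate 2. Cxcl1 was at 828.2 and 1340 against 440.3 and 453.6, a difference of 1.28 ± 0.483 that edgeR called (adjusted p = 0.0216) and DESeq2 did not (adjusted p = 0.0979). Cxcl13 stood at 31.21 and 34.81 against 1.031 and 11.04 (2.47 ± 0.958, adjusted p = 0.113). Cxcl10 in TET iTKO cells (5433 and 8437) lay within the range of WT cells (4957 and 17190), and Cxcl11 and Cxcl16 overlapped as well. Cxcl14 was again lower without passing, at 25.64 and 30.46 against 61.87 and 47.46 (adjusted p = 0.239).

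Markers of other cells differed between the same groups. In unstimulated TET iTKO libraries the 6 neutrophil markers with a row summed to 68.8 to 148 CPM against 28.5 to 53.4 in WT, and 4 stromal markers to 32.3 to 38 against 10.7 to 13.6. The 3 dendritic cell markers summed to 1.75 to 4.48 CPM against 0.233 to 0.39, and 2 B cell markers to 2.66 to 10.6 against 0.791 to 1.23. At 6 h the neutrophil sum was 74.3 to 114 against 37.2 to 38.6 and the stromal sum 57 to 62.9 against 17.9 to 20.3. The macrophage sum was 22100 to 22200 CPM against 25200 to 26400 at 0 h. At 0 h the test called S100a8, Ltf, Dcn, Ccr7 and Cd79a higher in TET iTKO cells. Of the 5 macrophage markers it called Itgam higher and Cd68 and Lyz2 lower at 0 h, and Cd68 and Lyz2 lower at 6 h. The part of other cells in the higher Cxcl1, Cxcl2, Cxcl3, Cxcl13 and Cxcl16 values was not tested.

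**Figure D4:**
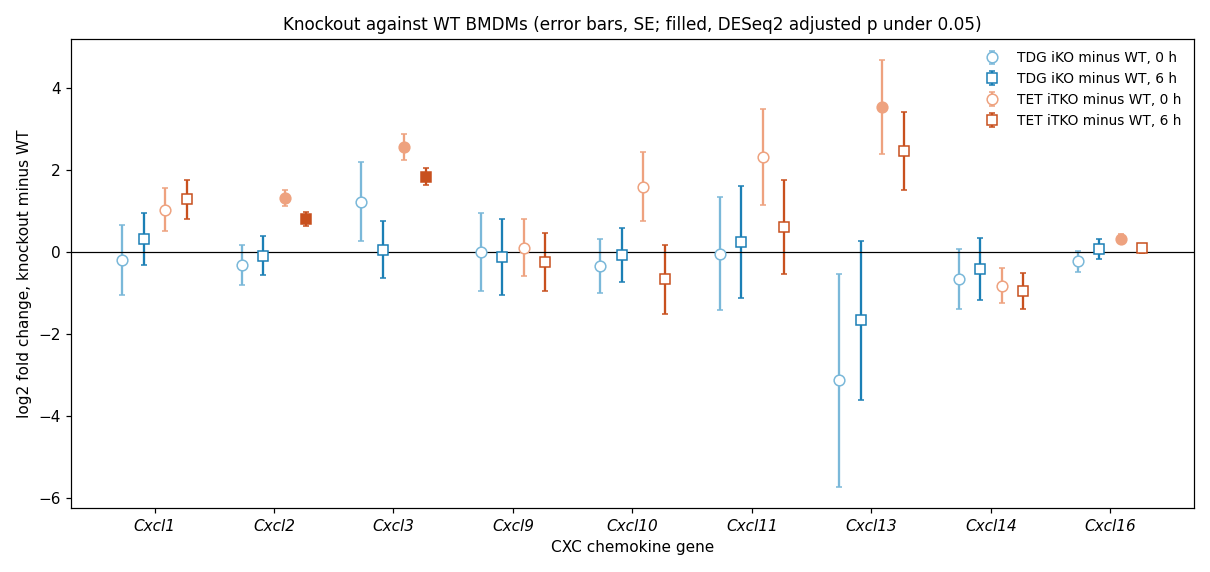
Log2 difference of CXC chemokine transcripts between knockout and WT BMDMs (Cxcl5 left out) at 0 h and 6 h of KLA, with SE as error bars and filled symbols where DESeq2's adjusted p was under 0.05. Filled symbols are those of TET iTKO for Cxcl2 and Cxcl3 at both times and for Cxcl13 and Cxcl16 at 0 h, and no TDG iKO symbol is filled.

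The KLA response of Cxcl10 and Cxcl11 was smaller in TET iTKO than in WT BMDMs when each animal was compared with itself. The names under which the Tet cohort was deposited give the 0 h and 6 h library of a replicate the same animal number, which pairs them. In the 2 WT animals Cxcl10 rose 27.6-fold and 32-fold, and in the 2 TET iTKO animals 6.97-fold and 6.13-fold. Cxcl11 rose 18.3-fold and 10.3-fold in WT and 3.65-fold and 3.35-fold in TET iTKO animals. The genotypes did not overlap for either gene. The difference of the KLA response (TET iTKO minus WT) for Cxcl10 was -2.26 ± 1.19 without pairing, at adjusted p = 1, and -2.21 ± 0.143 with a replicate block for the animal, at adjusted p = 4.12e-50. In that blocked fit 6 CXC genes were tested and Cxcl10 and Cxcl11 were called, where 2.48% of all genes were. For Cxcl11 it was -1.70 ± 1.64 (adjusted p = 1) without and -1.79 ± 0.373 (adjusted p = 2.52e-04) with the block. Without pairing none of the 9 CXC genes tested was called (1 at an unadjusted p under 0.05, none by edgeR), where 0.426% of all genes were. edgeR with the same block gave -2.22 (adjusted p = 1.61e-09) and -1.72 (adjusted p = 2.71e-04), the only 2 of 9 CXC genes it called, where it called 3.19% of all genes. The blocked fit leaves few residual degrees of freedom, with 2 animals against 2.

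At 0 h, where the TET iTKO animals started, they held more Cxcl10 and Cxcl11 than either WT animal, and at 6 h their levels lay between those of the 2 WT animals for Cxcl10. For the neutrophil-attracting genes the folds of single animals were closer. Cxcl1 rose 9.69-fold and 27-fold in WT and 12.4-fold and 22.9-fold in TET iTKO animals. Cxcl2 rose 13.2-fold and 23-fold in WT against 9.65-fold and 14.6-fold, and these overlapped. Cxcl3 rose 27.4-fold and 26.9-fold in WT against 14.7-fold and 17.4-fold in TET iTKO, which did not overlap. Its difference without pairing was -0.72 ± 0.376 (unadjusted p = 0.0564 by DESeq2) and did not pass in any fit. Cxcl16 rose 1.58-fold and 1.72-fold against 1.46-fold and 1.35-fold, which did not overlap either. In the blocked DESeq2 fit the difference was -0.75 ± 0.322 for Cxcl3 (unadjusted p = 0.0198) and -0.233 ± 0.108 for Cxcl16 (unadjusted p = 0.031). It was -0.554 ± 0.487 for Cxcl2 (unadjusted p = 0.255) and 0.0867 ± 0.815 for Cxcl1 (unadjusted p = 0.915). None of these passed after adjustment, so a smaller rise was not seen in Cxcl10 and Cxcl11 alone but was called only for them. With the animal as a replicate block, the Cxcl11 rise within TET iTKO cells passed too (log2 change 1.8 ± 0.232, adjusted p = 1.69e-13), which brought the genes that rose to 6 in both genotypes of the Tet cohort, where 14.2% of all genes rose in WT and 13.9% in TET iTKO cells in the blocked fit.

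**Figure D5:**
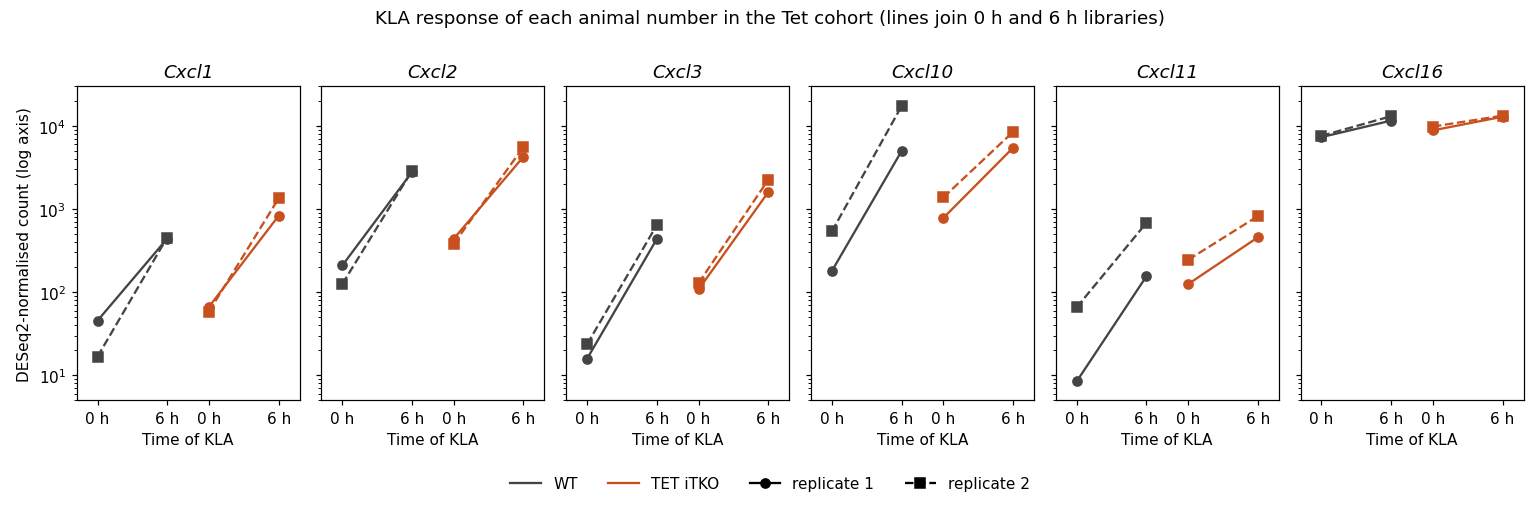
Normalised counts (log axis) of CXC chemokine transcripts at 0 h and 6 h of KLA in the Tet cohort, with lines that join the libraries of an animal. The TET iTKO lines for Cxcl10 (6.97-fold and 6.13-fold) and Cxcl11 (3.65-fold and 3.35-fold) start higher and climb less steeply than the WT lines.

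In TDG iKO BMDMs no CXC gene was called at 0 h or at 6 h among the 10 tested, at an unadjusted p under 0.05 none was either, and edgeR called none of the 8 it tested. The background at both times was 0% of 15026 genes. The 2 WT libraries at 0 h lay far apart (mean chi-square per gene 80.6), and replicate 2 held only 4982950 counts. The lack of calls at 0 h is thus limited by their spread and does not show that the genotypes were alike. At 0 h Cxcl10 was at 266 and 779.5 normalised counts in TDG iKO against 280 and 1056 in WT cells, and Cxcl2 at 160.5 and 98.92 against 234.4 and 85.14. The 95% interval of the log2 difference ran from -1.65 to 0.951 for Cxcl10 and from -1.3 to 0.639 for Cxcl2. The Cxcl2 difference seen in TET iTKO cells (1.31) lay above the latter. That interval rests on 2 libraries against 2, and the Cxcl2 value ran from -0.854 to 0.596 over the alternative fits. A difference of that size is thus not excluded. For Cxcl3, with 0.9173 and 17.2 against 3.796 and 4.602, the interval from -0.675 to 3.13 was wide. At 6 h the intervals were -1.33 to 1.44 for Cxcl3, -1.03 to 0.84 for Cxcl2, -1.38 to 1.21 for Cxcl10 and -0.43 to 0.566 for Cxcl16. The median log2 difference of the 10 was -0.214 at 0 h and -0.0906 at 6 h, against 0.0417 and 0 over all genes.

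The KLA response did not differ past the threshold between TDG iKO and WT cells for any CXC gene (0 of 10 by DESeq2 and 0 of 8 by edgeR, none at an unadjusted p under 0.05, background 0% of genes). Libraries with the same number, which the sources used here do not tie to a shared animal in this cohort, gave rises of Cxcl10 of 30.9-fold and 16.5-fold in WT and 29.3-fold and 21.5-fold in TDG iKO cells. For Cxcl11 they were 18.9-fold and 8.43-fold in WT against 14.1-fold and 11.5-fold. These ranges overlapped, unlike those of the TET iTKO cells, and the interval of the Cxcl10 difference was -1.57 to 2.1 without a block. With a replicate block for the numbers within each genotype, as used for the Tet cohort, the difference was 0.154 ± 0.393 for Cxcl10. For Cxcl11 it was 0.0666 ± 0.532, and 0 of all genes were called. The changes of the KLA response in TET iTKO and in TDG iKO cells were not tested against each other.

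The TET and TDG effects, each against the WT cells of its own cohort, were set against each other in a fit of all 16 BMDM libraries. At 0 h none of 8 CXC genes tested was called, with 2 of them (Cxcl2 and Cxcl16) at an unadjusted p under 0.05, none by edgeR and a background of 0.355%. Cxcl13, at an unadjusted p of 0.00707 with a difference of 6.80 ± 2.52, was left out by the filter on low counts. The TET effect exceeded the TDG effect on Cxcl2 by 1.64 ± 0.587 on the log2 scale (adjusted p = 0.409) and on Cxcl16 by 0.55 ± 0.217 (adjusted p = 0.551). At 0 h the difference for Cxcl3 was 1.32 ± 1.08 (adjusted p = 0.847). At 6 h none of 10 was called, with 2 (Cxcl3 and Cxcl13) at an unadjusted p under 0.05, none by edgeR and a background of 0.0765%. The difference was 1.79 ± 0.824 for Cxcl3 and 0.90 ± 0.567 for Cxcl2, at adjusted p = 1 in both.

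Th2 cells held little of any CXC transcript. Cxcl1, Cxcl9, Cxcl13 and Cxcl14 had 0 counts in all 8 libraries, and Cxcl11 had 1 count in 1 library. Cxcl3 had 4 to 25 counts and Cxcl10 had 3 to 57, the only members above 0 in every library. Per length, Cxcl10 and Cxcl3 were at 1.04 and 0.971 CPM per kilobase in TDG iKO and at 0.854 and 0.871 in WT cells. Cxcl16, the most abundant member in unstimulated BMDMs, had 0 to 14 counts. The normalised counts of Cxcl10 were 20.28, 13.02 and 33.08 in TDG iKO against 18.51, 5.406 and 29.99 in WT cells, which overlapped. No member was called between the genotypes (0 of 6 tested, none at an unadjusted p under 0.05, background 0% of 15826 genes). edgeR tested only Cxcl10 of them and did not call it. That test had no replicate block. In an alternative DESeq2 fit with a block for the replicate numbers, the filter on low counts left no member to be tested. The unadjusted p of Cxcl10 there was 0.548. Differences among counts this low were not detectable at this depth.

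Genes that act with these chemokines were taken from lists of receptors, further ligands, regulators and processing enzymes. Among 8 receptors, Cxcr4, the receptor of Cxcl12, fell with KLA in all 4 groups, by 2.22 (log2) in WT and 1.93 in TDG iKO cells of the Tdg cohort and by 2.21 and 1.67 in WT and TET iTKO cells of the Tet cohort. Cxcr3, the receptor of Cxcl9 to Cxcl11, fell with KLA in WT cells of the Tet cohort by 3.57 from a mean of 18.86 normalised counts (adjusted p = 0.00407) and was not called in the other 3 groups (-1.97 and -1.64 in WT and TDG iKO cells of the Tdg cohort, -0.94 in TET iTKO cells). It was higher in TET iTKO than in WT cells at 6 h, at a mean of 22.02 against 1.619 (3.78 ± 1.05, adjusted p = 0.0077). Of the further ligands, Pf4, the platelet factor that lies between Cxcl5 and Cxcl3, was higher in unstimulated TET iTKO cells at a mean of 4639 against 2905 (0.68 ± 0.169, adjusted p = 0.00194, not called by edgeR). Platelet and megakaryocyte markers there summed to 1.03 to 1.22 CPM against 0.325 to 0.837 in WT cells.

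Of 8 NF-kB subunits and regulators, 5 were higher in unstimulated TET iTKO cells, where 4.38% of all genes tested were higher. These were Nfkb2, Relb, Nfkbia, Nfkbiz and Bcl3, with log2 differences of 0.51 to 0.64. At 6 h none of the 8 was called (5 at an unadjusted p under 0.05, none by edgeR), where 3.24% of all genes were higher and 3.34% lower. The median log2 difference of the 8 at 0 h was 0.535, against 0.00833 over all genes. Nfkbia, the inhibitor that NF-kB induces, was at a mean of 3187 against 2236 normalised counts. With KLA, 8 of 8 rose in both genotypes of the Tet cohort, where 13.1% of all genes rose in WT and 12.8% in TET iTKO cells. In the Tdg cohort 6 rose in WT and 5 in TDG iKO cells, where 5.29% and 4.27% of all genes rose. Of 8 interferon pathway genes, none was called between TET iTKO and WT cells at either time (2 at 0 h and 1 at 6 h at an unadjusted p under 0.05, none by edgeR). Of all genes tested, 7.5% were called at 0 h and 6.58% at 6 h. With KLA, 2 of the 8 rose in WT and 1 in TDG iKO cells of the Tdg cohort, and 4 and 3 in WT and TET iTKO cells of the Tet cohort, against the same shares of all genes as above. Irf1, a transcription factor of this pathway, was among them in all 4 groups. edgeR called none of the interferon pathway genes in either group of the Tdg cohort, and 3 and 2 of the NF-kB genes there. The log2 change of Irf1 was 1.41 ± 0.354 in WT and 0.97 ± 0.354 in TET iTKO cells of the Tet cohort.

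Among 8 genes of chemokine mRNA decay and protein processing, Zfp36l1, which speeds the decay of AU-rich mRNAs, fell with KLA in all 4 groups, by 1.81 to 2.51 on the log2 scale. Zc3h12a (Regnase-1), a ribonuclease for inflammatory mRNAs, and Adam17, a sheddase, rose in all 4. In each group of the Tdg cohort DESeq2 called 3 of the 8, where it called 8.6% of all genes in WT and 7.08% in TDG iKO cells. edgeR called only 1 of the 8 in each, where it called 3.71% and 3.11% of all genes. Mmp9, a protease that can trim CXC chemokines, was higher in TET iTKO cells at 0 h, at a mean of 3569 against 736.1 normalised counts (2.28 ± 0.529, adjusted p = 5.96e-04), and at 6 h, at 6504 against 1986 (1.71 ± 0.528, adjusted p = 0.0236). Adam10, the main sheddase of Cxcl16, fell with KLA by 0.33 in WT and 0.35 in TET iTKO cells of the Tet cohort.

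Across the 16 BMDM libraries, some neighbouring CXC genes moved together, as did some on different chromosomes. Only members with a mean of at least 50 normalised counts were compared, which left out Cxcl5, Cxcl9 and Cxcl13. Not every neighbour was thus covered, and Cxcl9, next to Cxcl10, was not called with KLA in any group. Pearson's r of log2 normalised counts, given as a description over libraries that share the KLA contrast, was 0.914 for Cxcl1 with Cxcl2, 0.927 for Cxcl1 with Cxcl3 and 0.91 for Cxcl2 with Cxcl3. Cxcl10 and Cxcl11 were at 0.937. On different chromosomes, Cxcl10 and Cxcl16 were at 0.958 and Cxcl2 and Cxcl16 at 0.908. Cxcl14 was negative with all the others compared, between -0.539 and -0.75. The gene most like Cxcl1 among 9474 was Trps1 (0.985), that most like Cxcl2 was Ets2 (0.989), followed by Nlrp3 and Dusp16 (0.988 each), and that most like Cxcl3 was AI504432 (0.988). Cxcl10 was nearest to Il27 (0.978) and Nod2 (0.975), and Cxcl11 to Fgl2 (0.959), A530032D15Rik (0.955) and Mx2 (0.953). Cxcl16 was nearest to Bcl2a1d (0.983), Traf1 (0.982) and Nfkbia (0.98), and Cxcl14 to Apmap (0.928) and Cryl1 (0.923).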

How the data were processed

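Polyadenylated RNA was sequenced from 24 libraries (16 of BMDMs and 8 of Th2 cells). The authors aligned the paired reads to mm9 with HISAT2 and deposited raw counts per gene from HTSeq-count. The annotation, strand setting and versions of both are not given in the sources used here. The notes also name DESeq2 1.30.0. The 5 tallies of unassigned reads stayed out. Counts were tested with DESeq2 1.42.0 (Wald test, under R 4.3.3), with Benjamini-Hochberg adjustment over all genes, default filtering and a threshold of 0.05. Each BMDM cohort (8 libraries) and the Th2 cells had a fit of their own, the KLA responses were compared by interaction, and TET and TDG effects in a fit of all 16 BMDM libraries. The quasi-likelihood test of edgeR 4.0.16, a filter of 10 counts in 2 libraries, a replicate block, single comparisons and leaving out each replicate were alternatives. A block for replicate numbers nested in genotype was also run with edgeR, which was chosen after seeing the data. The fits were checked on simulated counts.

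Same-numbered libraries deviated together in Th2 cells (r = 0.51, 0.733 and 0.919), and what the numbers share there is not given. The Th2 test reported above had no replicate block. A blocked fit, run as an alternative, left no CXC gene to be tested. In the Tet cohort the deposited names tie the 0 h and 6 h library of each number to 1 animal. Levels per length used exon unions of an mm9 gene annotation (GENCODE). Promoters came from RefSeq tables of GRCm38.p6, which were not converted to mm9. The CXC genes, the gene lists and the motifs were chosen with earlier results of these data known. The genes named were the 10 members, those of the lists past the threshold, and for members with a mean of at least 50 normalised counts the genes nearest by Pearson's r of log2(normalised count + 1).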

Additional observations from a re-analysis of the deposited data

Results flagged for a closer look

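The KLA response of Cxcl10 differed between TET iTKO and WT BMDMs by -2.21 on the log2 scale with a replicate block for the animal (adjusted p = 4.12e-50 by DESeq2), in a test of the difference itself. The rise was 6.97-fold and 6.13-fold in TET iTKO animals and 27.6-fold and 32-fold in WT animals. Without the block the difference was -2.26 at adjusted p = 1. For Cxcl11 the difference was -1.79 with the block (adjusted p = 2.52e-04), from rises of 3.65-fold and 3.35-fold against 18.3-fold and 10.3-fold. With 2 animals against 2, the blocked fit leaves few residual degrees of freedom, so the size of these p-values is not a measure of the spread among animals. A replicate block shared between the genotypes gave adjusted p = 0.0162 for Cxcl10 and 0.865 for Cxcl11 by DESeq2. Both genes were already higher in the TET iTKO than in the WT animals at 0 h, and the causes of these differences were not tested.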

How the results depend on the processing

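The 26 CXC fold changes past the threshold were recomputed under 274 alternatives. Of these, 250 kept the direction and the call, 24 kept the direction without passing, and none changed sign. At 0 h, TET iTKO against WT gave 4 CXC genes, where 4.38% of all genes were higher. Under edgeR it gave 2 (Cxcl2 and Cxcl3), where 3.3% were higher. Over the alternatives the log2 difference ran from 2.32 to 2.9 for Cxcl3 and from 0.965 to 1.71 for Cxcl2. It ran from 2.66 to 6.64 for Cxcl13 and from 0.244 to 0.395 for Cxcl16. At 6 h the same contrast gave 2, where 3.24% of all genes were higher. Over the alternatives the log2 difference there ran from 1.57 to 2.14 for Cxcl3 and from 0.582 to 0.974 for Cxcl2. Cxcl3 passed in all 9 alternatives at each time, Cxcl2 in 9 at 0 h and 5 at 6 h. With 1 library left out, the KLA rises of Cxcl1, Cxcl2, Cxcl3 and Cxcl10 kept their direction in each cohort and genotype. The contrast of the KLA response between TET iTKO and WT gave 0 genes (52 of all genes called), 1 with a replicate block shared between genotypes (Cxcl10, 90 of all genes), 2 with the block nested in genotype (2.48% of all genes) and 2 in edgeR with the nested block (365 of all genes). The TET effect minus the TDG effect gave 0 genes at each time (39 of all genes at 0 h), 3 at 0 h (Cxcl2, Cxcl10 and Cxcl11, with 186 of all genes) and 1 at 6 h (Cxcl3, with 101 of all genes) with a replicate block. With 1 library left out it gave 0 to 1 at 0 h, namely Cxcl16 without Tdg cohort WT replicate 1, where 2403 of all genes (20.8%) were called, and Cxcl2 without replicate 2, with 28 of all genes. Leaving out 1 library kept the other counts at 0. Outside the KLA contrasts of the Tet cohort, no source used here ties same-numbered libraries to shared animals. Between TET iTKO and WT such libraries hardly deviated together (r = 0.0175 at 0 h and 0.065 at 6 h). In the Tdg cohort they did so more, with r = 0.313 at 0 h and 0.822 at 6 h between TDG iKO and WT. Between 0 h and 6 h of that cohort, r was 0.361 in WT and 0.823 in TDG iKO cells. What the numbers of the Tdg cohort share is not given. In these comparisons the replicate block gave 6 CXC genes for TET iTKO at 0 h (adding Cxcl10 and Cxcl11), where 5.24% of all genes were higher. At 6 h it gave 2 (Cxcl3 and Cxcl13), where 3.46% were higher. Rises with KLA were 5 in WT and 6 in TDG iKO cells of the Tdg cohort (adding Cxcl11 in both). There the block raised the share of all genes that rose from 5.29% to 9.35% in WT and from 4.27% to 6.7% in TDG iKO cells. It changed no other call of TDG iKO cells. In Th2 cells no member was tested with the block. The cause of these changes was not tested. Depth limits Cxcl5 and Cxcl13 in BMDMs and all members in Th2 cells.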
